A study of Homo sapiens with 8 samples.

Results

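The 10 genes described here encode transcriptional regulators of the T-cell lineage: the paralogs BCL11B and BCL11A, the HMG-box factors TCF7, LEF1 and TOX, the chromatin organizer SATB1, the Ikaros family members IKZF1, IKZF2 and IKZF3, and the repressor GFI1. They were taken from a list of symbols, chosen with earlier results of these data known. Matched by name to Ensembl identifiers, all 10 were found among the 63677 genes of each count table. RNA was sequenced from DND-41 and MOLT-4, 2 established lines of human T-ALL (acute lymphoblastic leukaemia of T cells). Cells of each line had received either 100 nM ACBI-1 or the solvent DMSO, and were harvested 3 h later. ACBI-1 is a bifunctional degrader that recruits the VHL ubiquitin ligase to SMARCA2, SMARCA4 and PBRM1, proteins of the SWI/SNF (BAF and PBAF) chromatin remodelling complexes. The 4 groups were thus DND-41 with DMSO, DND-41 with ACBI-1, MOLT-4 with DMSO and MOLT-4 with ACBI-1, each with 2 libraries and each from a single line, with no genetic change named in the labels. Whether replicates were separate cultures is not in the labels, and every p-value below rests on the spread of such pairs, which may be technical.

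These regulators act at successive steps of T-cell development. TCF7 (encoding TCF-1) and LEF1 bind DNA through an HMG box, can use beta-catenin as a coactivator and TLE proteins as corepressors, and open the T-cell programme in early thymocytes. BCL11B is required for commitment to the T lineage, and its paralog BCL11A acts in early lymphoid progenitors. Both BCL11 proteins have been described as subunits of BAF complexes, which are the targets of the degrader. SATB1 folds chromatin in thymocytes, and TOX is needed for the CD4 lineage. The Ikaros family proteins are zinc-finger factors that recruit the NuRD complex, with its CHD4 ATPase, while GFI1 is a zinc-finger repressor that works with the demethylase KDM1A and its partner RCOR1.

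Libraries held 19867779 to 20082524 counts, and mitochondrially encoded genes took 13.3% to 20.04% of them. In DND-41 this share was 17.4% and 13.3% in the ACBI-1 libraries and 15.2% and 15.1% in the DMSO libraries. Transcripts of the degrader's targets were not called: for SMARCA2, SMARCA4 and PBRM1 the log2 change (ACBI-1 minus DMSO) lay between -0.13 and 0.06 in each line. Their proteins were not measured. Summed over 7 T-cell markers, the level was 4467 to 4641 CPM (the count scaled to a common library total) in DND-41 and 1937 to 2057 CPM in MOLT-4. CD7 made most of that difference (2252 CPM in DND-41 DMSO and 88.1 in MOLT-4 DMSO), while CD5 went the other way (1.77 and 150.2 CPM), and PTCRA, the pre-T-cell receptor chain, had at most 0.050 CPM in DND-41. Of 6 B-cell markers, CD79A alone reached 1550 to 1762 CPM in DND-41 and 8.85 to 15.8 CPM in MOLT-4, while MS4A1 had no count in any library. Myeloid and erythroid markers summed to at most 0.403 CPM and natural killer markers to at most 1.11 CPM. In DND-41 DMSO replicate 2, 61 genes stood at a median of 0.588% of their MOLT-4 level. These were chosen as genes of at least 20 CPM in MOLT-4 that lay below 0.2% of that level in at least 3 of the 4 DND-41 libraries, so that low values in the other libraries follow from the choice. The response of TCF7 in DND-41 is given below with and without these reads. The levels of TCF7 and its difference between the lines include them. The ACBI-1 replicates of DND-41 lay furthest apart, with a chi-square of their counts of 10.5 per gene against 2.34 to 3.71 in the other groups.

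The sequences upstream of 4 regulators are shown because these genes carry the results. The response of SATB1 differed between the lines, and GFI1 fell in both. IKZF1 had the largest rise in MOLT-4 among the 10. IKZF2 rose in both, though DESeq2, another test, did not bear this out in DND-41 (adjusted p = 0.673). Each sequence is the 250 bases before a RefSeq start (build GRCh38.p14, 5′ to 3′ on the gene's strand). Of several RefSeq starts the one nearest to a principal coding start in GENCODE 29 was taken. Capitals mark any match, on either strand, to CANNTG for the E-box, TGTGGT for the RUNX motif, AGATAA for the GATA motif, CGGAAG for the ETS motif, CTTTGA for the TCF/LEF motif, TGGGAA for the Ikaros motif or TGANTCA for the AP-1 motif.
SATB1, chr3:18425340-18425589, minus strand: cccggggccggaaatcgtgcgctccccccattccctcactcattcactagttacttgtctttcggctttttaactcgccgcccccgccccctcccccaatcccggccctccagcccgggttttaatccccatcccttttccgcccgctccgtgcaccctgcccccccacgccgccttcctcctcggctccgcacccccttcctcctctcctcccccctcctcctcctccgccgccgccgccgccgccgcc
GFI1, chr1:92486100-92486349, minus strand: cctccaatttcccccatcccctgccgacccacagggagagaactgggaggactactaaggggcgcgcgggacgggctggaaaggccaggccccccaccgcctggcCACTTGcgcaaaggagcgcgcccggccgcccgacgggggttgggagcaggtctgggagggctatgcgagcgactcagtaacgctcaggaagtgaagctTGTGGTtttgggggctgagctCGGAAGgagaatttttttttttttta
IKZF1, chr7:50304466-50304715, plus strand: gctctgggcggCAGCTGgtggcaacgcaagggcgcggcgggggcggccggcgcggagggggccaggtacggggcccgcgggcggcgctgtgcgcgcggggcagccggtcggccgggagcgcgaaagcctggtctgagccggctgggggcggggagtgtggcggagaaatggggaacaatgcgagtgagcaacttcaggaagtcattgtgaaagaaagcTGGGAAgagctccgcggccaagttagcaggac
IKZF2, chr2:213152457-213152706, minus strand: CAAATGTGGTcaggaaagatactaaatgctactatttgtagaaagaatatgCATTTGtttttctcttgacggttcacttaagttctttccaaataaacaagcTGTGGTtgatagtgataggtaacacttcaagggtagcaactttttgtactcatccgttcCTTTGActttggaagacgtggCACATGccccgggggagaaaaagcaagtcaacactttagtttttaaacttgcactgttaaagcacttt

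The 4 windows differed widely in composition. SATB1 had none of these motifs, 24 CpG dinucleotides and 70.0% G and C. GFI1 had 1 E-box, 1 RUNX and 1 ETS match, with 17 CpG. IKZF1 had 1 E-box and 1 match to the Ikaros motif, the family's own, with 28 CpG. IKZF2 was A- and T-rich, with 38.0% G and C and 4 CpG, and held 3 E-boxes, 2 RUNX matches and 1 TCF/LEF match. The first E-box and the first RUNX match of IKZF2 overlap. Its RefSeq start lies 853 bases from the nearest GENCODE principal start, against 0, 2 and 28 bases for IKZF1, SATB1 and GFI1. Over 35116 RefSeq promoter windows of this length, 61.8% held an E-box, 20.8% an Ikaros, 16.5% an ETS, 11.2% a TCF/LEF, 11.0% a RUNX, 9.17% a GATA and 6.57% an AP-1 match, and the median was 11 CpG. A match describes the letters only, and no binding was measured. BCL11B, BCL11A, TCF7 and LEF1 were matched too, and TOX and IKZF3 were not.

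The first question was how abundant the regulators were in untreated cells. With counts divided by exon length (CPM per kb of exon), LEF1 stood highest in both lines, at 241 ± 9.48 in DND-41 DMSO and 286 ± 0.171 in MOLT-4 DMSO (SD, n = 2). IKZF3 stood lowest, at 0.0973 ± 0.0173 and 0.410 ± 0.0181. In MOLT-4 DMSO the order was LEF1, TCF7, TOX, IKZF1, GFI1, BCL11B, SATB1, IKZF2, BCL11A and IKZF3, and no neighbours in it had overlapping libraries. In DND-41 DMSO it was LEF1, TOX, IKZF1, GFI1, TCF7, BCL11B, SATB1, IKZF2, BCL11A and IKZF3, and only TCF7 (8.68 ± 0.474) and BCL11B (8.65 ± 0.0729) overlapped. TCF7 thus stood next to LEF1 in MOLT-4 and close to BCL11B in DND-41. In DND-41 DMSO TCF7 had 8.34 and BCL11B 8.60 in replicate 1, against 9.01 and 8.70 in replicate 2. The MOLT-4 reads in replicate 2 were not subtracted here, so the order and overlap of TCF7 and BCL11B in DND-41 are uncertain. Lengths are of the union of exons in GENCODE 29, so a gene with many annotated isoforms, such as BCL11A, is divided by more bases than 1 transcript holds. The order depends on these lengths, which were 10063 bases for TCF7 and 5361 for LEF1. Undivided, TCF7 stood above LEF1 in MOLT-4 DMSO (2041 and 2138 against 1532 and 1531 CPM). Undivided in DND-41 DMSO, TCF7 stood above BCL11B (83.9 and 90.7 against 67.6 and 68.4 CPM).

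**Figure D1:**
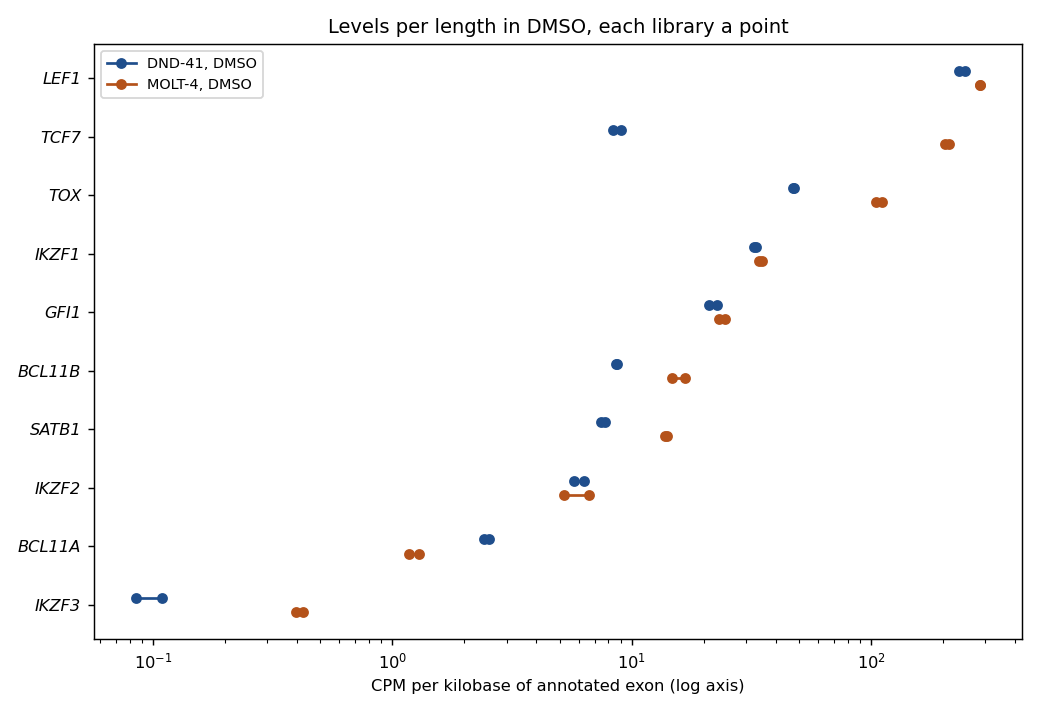
Levels of the 10 regulators per kb of exon (CPM per kb, log axis) in the DMSO libraries of DND-41 and MOLT-4, with a point per library. By this measure LEF1 is highest and IKZF3 lowest in both lines, and TCF7 moves from 8.68 in DND-41 DMSO to 208 in MOLT-4 DMSO.

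Between the untreated lines, 7 of the 10 regulators were called (6 higher and 1 lower in MOLT-4), where called means an adjusted p under 0.05 in edgeR's quasi-likelihood test. Of all 15604 genes tested in that comparison 64.4% were called (32.8% higher and 31.6% lower in MOLT-4), so this share is near the background. TCF7 had 83.9 and 90.7 CPM in the DND-41 DMSO libraries and 2041 and 2138 CPM in those of MOLT-4. The groups lay far apart, with a log2 difference of 4.63 ± 0.09 (SE), or 24.8-fold (edgeR, adjusted p = 1.32e-25). IKZF3, an Ikaros family gene of mature lymphocytes, was low in both but 4.34-fold higher in MOLT-4 (log2 2.12 ± 0.26). TOX was higher by 1.23 ± 0.06, SATB1 by 0.92 ± 0.06, BCL11B by 0.91 ± 0.07 and LEF1 by 0.30 ± 0.07 on the log2 scale. BCL11A went the other way, with 61.6 and 64.6 CPM in DND-41 and 32.9 and 29.9 CPM in MOLT-4, a log2 difference of -0.96 ± 0.08. GFI1 (0.17 ± 0.08), IKZF1 (0.13 ± 0.07) and IKZF2 (0.02 ± 0.10) were not called. GFI1 and IKZF1 lay near the threshold: both were called with DESeq2's size factors in edgeR (adjusted p = 0.0362 and 0.0491) and in a fit of the 4 DMSO libraries alone (adjusted p = 0.0214 and 0.0352), and IKZF1 with DESeq2 (adjusted p = 0.0372).

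The next comparison asked how the regulators responded to 3 h of ACBI-1. All 10 had enough counts to be tested in both lines. The list was chosen with earlier results of these data known, so a share above that of all genes may follow from the choice. In DND-41 2 of 10 were called, IKZF2 higher and GFI1 lower, against 9.83% of all 14019 genes tested (3.78% higher and 6.05% lower). In MOLT-4 7 of 10 were called, against 10.8% of all 14470 genes tested (3.9% higher and 6.94% lower): BCL11B, BCL11A, LEF1, SATB1 and GFI1 fell, and IKZF1 and IKZF2 rose. The median log2 change of the 10 was -0.02 in DND-41 and -0.29 in MOLT-4, and that of all genes tested was 0.0029 and -0.00097. IKZF2 and GFI1 were the 2 called in both lines. Of the 12968 genes tested in both lines 5.05% were called in both. The sign was the same in both lines for 8 of 10 regulators, and for 67.3% of those genes. The changes were of modest size, none beyond 1.5-fold. Without either of its ACBI-1 libraries the MOLT-4 count came to 0, as it did for all genes, and the DND-41 count to 0 without ACBI-1 replicate 1 and to 1 without ACBI-1 replicate 2 or without DMSO replicate 2.

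**Figure D2:**
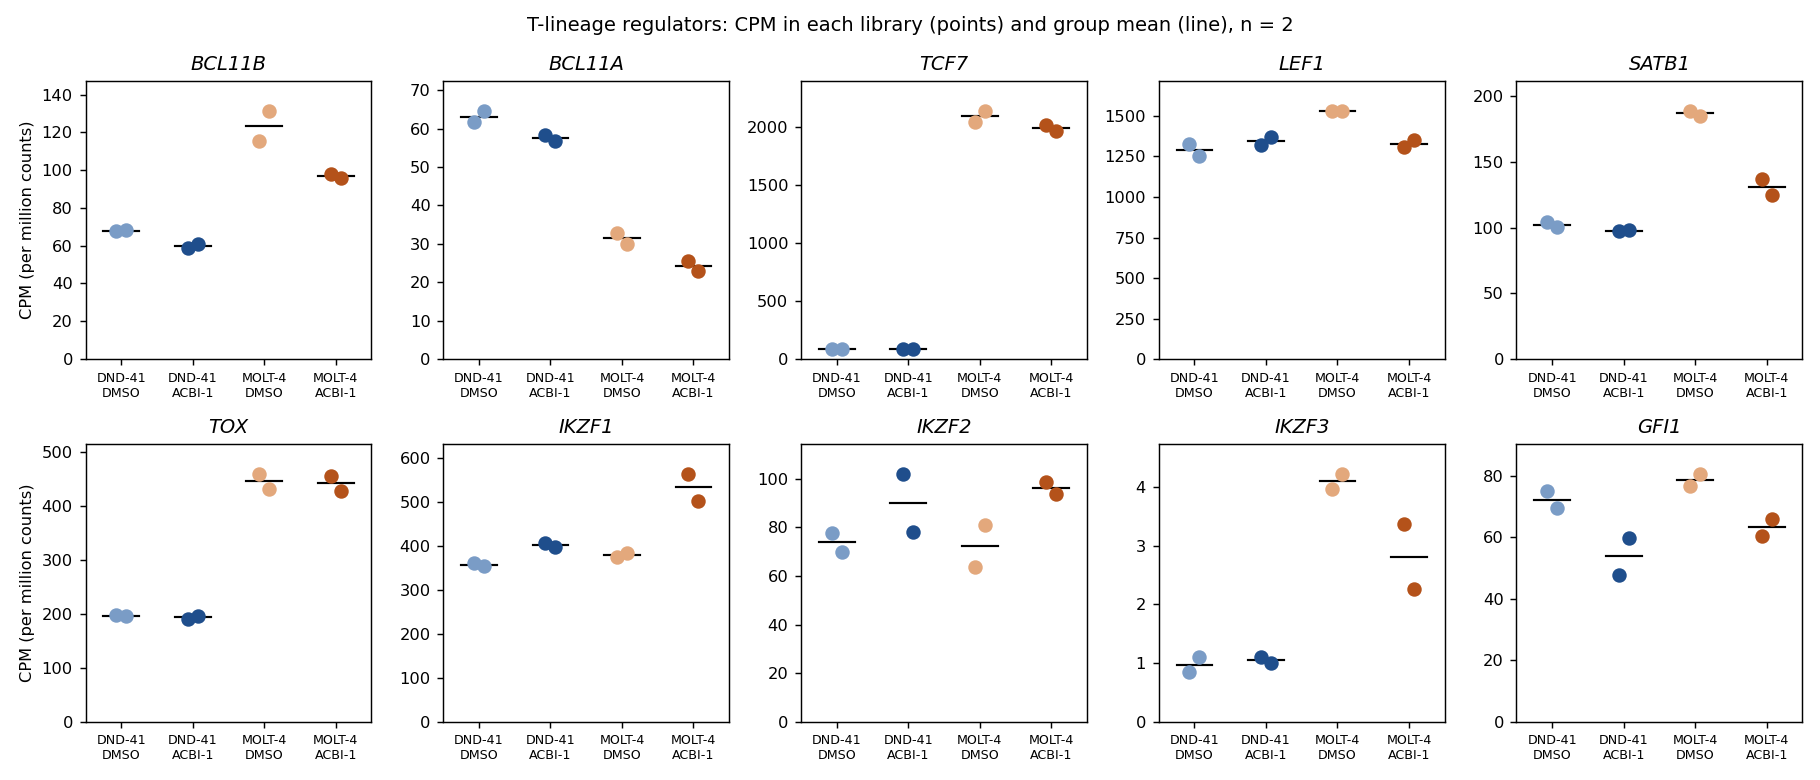
Level of each regulator in CPM, a panel per gene with its own axis from 0; points are the 2 libraries of each group and lines their mean. In MOLT-4 both ACBI-1 libraries lie below both DMSO libraries for SATB1 (125 to 137 against 185 to 189 CPM) and above them for IKZF1 (501 to 564 against 373 to 382 CPM).

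SATB1 (ENSG00000182568), which tethers chromatin loops in thymocytes, had the smallest adjusted p of the 10 in the response of MOLT-4. In MOLT-4 it had 189 and 185 CPM with DMSO and 137 and 125 CPM with ACBI-1. Both treated libraries lay below both controls, and the log2 change was -0.54 ± 0.06 (95% interval -0.67 to -0.41, edgeR adjusted p = 8.35e-07), which is 1.45-fold lower. In DND-41 it had 104 and 100 CPM with DMSO and 97.6 and 98.0 CPM with ACBI-1. These libraries did not overlap either, but the change of -0.07 ± 0.07 was not called (interval -0.21 to 0.07). The difference between the lines was tested as an interaction in a fit of all 8 libraries, in which 0.641% of 15604 genes were called (0.199% higher and 0.442% lower). SATB1 was the only regulator called there, with a larger fall in MOLT-4 and a log2 difference of -0.44 ± 0.09 (edgeR, adjusted p = 0.0112). That call was lost without DND-41 DMSO replicate 2 (-0.43, adjusted p = 0.104) and without MOLT-4 ACBI-1 replicate 2 (-0.41, adjusted p = 0.112), and with no filter on low counts (adjusted p = 0.148). Its smallest adjusted p with edgeR, 0.00725, came with DESeq2's size factors. SATB1 shares 1.57% of its exon bases with TBC1D5 on the same strand.

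BCL11B (ENSG00000127152), the T-lineage commitment factor, fell in MOLT-4. Its DMSO libraries had 116 and 131 CPM and its ACBI-1 libraries 98.0 and 96.0 CPM. The groups did not overlap, with a log2 change of -0.38 ± 0.07 (edgeR, adjusted p = 0.000317). In DND-41 it had 67.6 and 68.4 CPM with DMSO and 58.7 and 60.9 CPM with ACBI-1. The groups were again apart, and the change of -0.19 ± 0.07 was not called (adjusted p = 0.0883). Its paralog BCL11A (ENSG00000119866) had 32.9 and 29.9 CPM with DMSO and 25.6 and 23.0 CPM with ACBI-1 in MOLT-4. This was a fall of 0.40 ± 0.09 on the log2 scale (edgeR, adjusted p = 0.00252). In DND-41 BCL11A went from 61.6 and 64.6 to 58.3 and 56.7 CPM, -0.14 ± 0.07 and not called. So both BCL11 genes fell in MOLT-4 by about the same factor, 1.30-fold and 1.32-fold, from levels that the lines hold in opposite order. The differences between lines were -0.16 ± 0.10 for BCL11B and -0.23 ± 0.11 for BCL11A and were not called.

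Of the HMG-box factors LEF1 alone was called. LEF1 (ENSG00000138795) had 1532 and 1531 CPM with DMSO and 1307 and 1353 CPM with ACBI-1 in MOLT-4. The groups were apart, and the change of -0.23 ± 0.07 was called (edgeR, adjusted p = 0.0208), though not with total counts as the scale (-0.20, adjusted p = 0.0677) or in a fit of all 8 libraries (-0.22, adjusted p = 0.053). In DND-41 LEF1 had 1326 and 1254 CPM with DMSO and 1318 and 1371 CPM with ACBI-1, which overlapped, at 0.05 ± 0.08. The difference between lines, -0.26 ± 0.10, was not called with edgeR (adjusted p = 0.443) and was called with DESeq2 (-0.28, adjusted p = 0.0325). An antisense gene, LEF1-AS1, shares 5.2% of LEF1's exon bases. TCF7 (ENSG00000081059) was not called in either line in spite of its high count. In MOLT-4 it had 2041 and 2138 CPM with DMSO and 2020 and 1961 CPM with ACBI-1, at -0.10 ± 0.07 (95% interval -0.24 to 0.04). In DND-41 it had 83.9 and 90.7 CPM with DMSO and 88.9 and 85.7 CPM with ACBI-1, which overlapped, at -0.0083 ± 0.07. With the MOLT-4 reads subtracted from DND-41 DMSO replicate 2 this became 0.09 (adjusted p = 0.507). TOX (ENSG00000198846) had 460 and 431 CPM with DMSO and 455 and 428 CPM with ACBI-1 in MOLT-4, at -0.04 ± 0.06. In DND-41 its 197 and 195 CPM stood against 190 and 197 CPM, at -0.03 ± 0.07. The groups overlapped in both lines, and the intervals of -0.17 to 0.09 and -0.16 to 0.10 bound the change of TOX.

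IKZF1 (ENSG00000185811), which encodes Ikaros, rose in MOLT-4. It went from 373 and 382 CPM with DMSO to 564 and 501 CPM with ACBI-1. No libraries overlapped, and the change of 0.47 ± 0.06 was 1.38-fold (edgeR, adjusted p = 9.42e-06). In DND-41 it had 360.03 and 354 CPM with DMSO and 405 and 397 CPM with ACBI-1. Both treated libraries were higher there too, but 0.16 ± 0.07 was not called (adjusted p = 0.166), and neither was the difference between lines (0.33 ± 0.09, adjusted p = 0.132). IKZF2 (ENSG00000030419), which encodes Helios, had 63.8 and 81.1 CPM with DMSO and 98.9 and 93.6 CPM with ACBI-1 in MOLT-4. Its change of 0.38 ± 0.08 was called (edgeR, adjusted p = 0.00175), and was 0.22 and not called without DMSO replicate 1 (adjusted p = 0.0808). In DND-41 IKZF2 had 77.7 and 70.01 CPM with DMSO and 102 and 78.1 CPM with ACBI-1. The upper DMSO library and the lower ACBI-1 library nearly met, and 0.28 ± 0.09 was called (edgeR, adjusted p = 0.0384). Leaving out a library ended that call in 3 cases: the change was 0.06 (adjusted p = 0.755) if ACBI-1 replicate 1 was dropped, 0.47 (adjusted p = 0.0643) for ACBI-1 replicate 2 and 0.21 (adjusted p = 0.353) for DMSO replicate 2. Fitting both lines together (0.26, adjusted p = 0.106) or using DESeq2 (adjusted p = 0.673) ended it too. IKZF3 (ENSG00000161405), which encodes Aiolos, had 17 to 22 counts per library in DND-41 and 45 to 84 in MOLT-4. Its changes, 0.10 ± 0.35 in DND-41 and -0.57 ± 0.21 in MOLT-4, were not called (adjusted p = 0.926 and 0.0801 in edgeR), though the change in MOLT-4 was called with the replicate number as a block (adjusted p = 0.0344).

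GFI1 (ENSG00000162676) fell in both lines. In DND-41 it had 74.9 and 69.6 CPM with DMSO and 47.7 and 59.7 CPM with ACBI-1. The groups did not overlap, and the log2 change was -0.44 ± 0.08 (edgeR, adjusted p = 0.000338). In MOLT-4 it went from 76.7 and 80.7 to 60.4 and 66.03 CPM, -0.34 ± 0.07 (edgeR, adjusted p = 0.00135). The difference between lines was 0.12 ± 0.12 with an interval of -0.12 to 0.36. In DND-41 the call was lost without ACBI-1 replicate 1, with the change then at -0.30 (adjusted p = 0.191). That library is the one with 17.4% mitochondrially encoded counts, whose part in the results for GFI1 and IKZF2 was not tested.

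**Figure D3:**
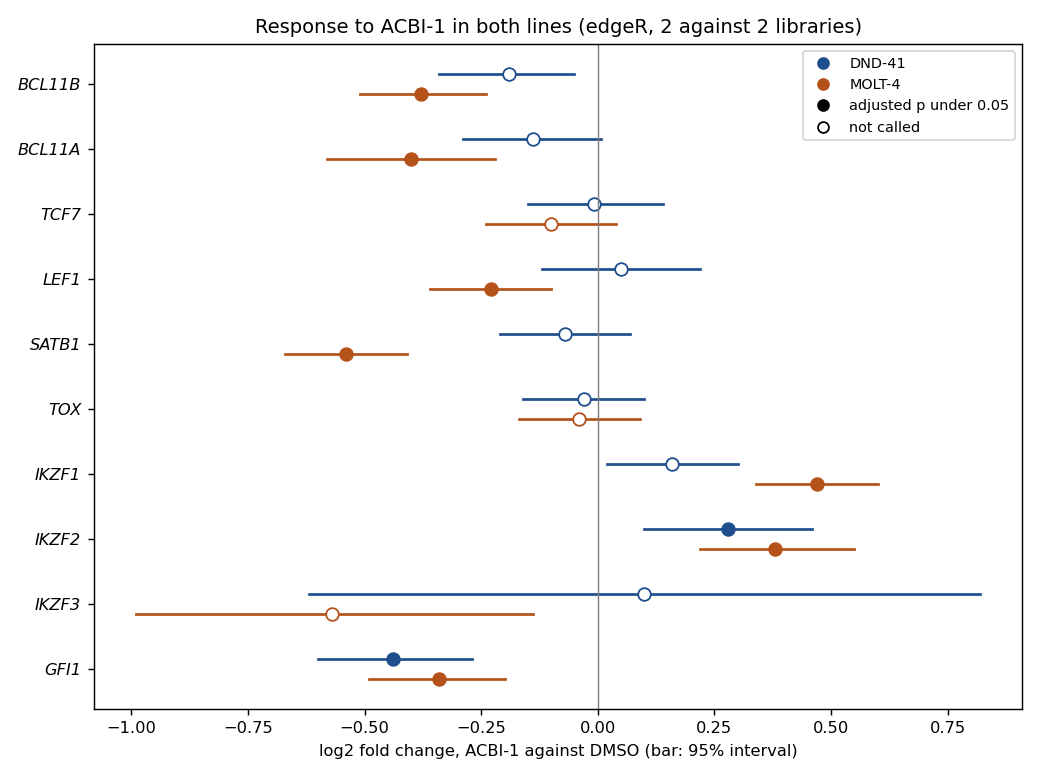
Log2 fold change of each regulator (ACBI-1 minus DMSO) in each line, with 95% intervals from edgeR and calls at an adjusted p under 0.05 marked. GFI1 falls and IKZF2 rises in both lines, though DESeq2 does not call IKZF2 in DND-41. SATB1 is at -0.54 in MOLT-4 and -0.07 in DND-41, and the wide intervals belong to IKZF3.

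**Figure D4:**
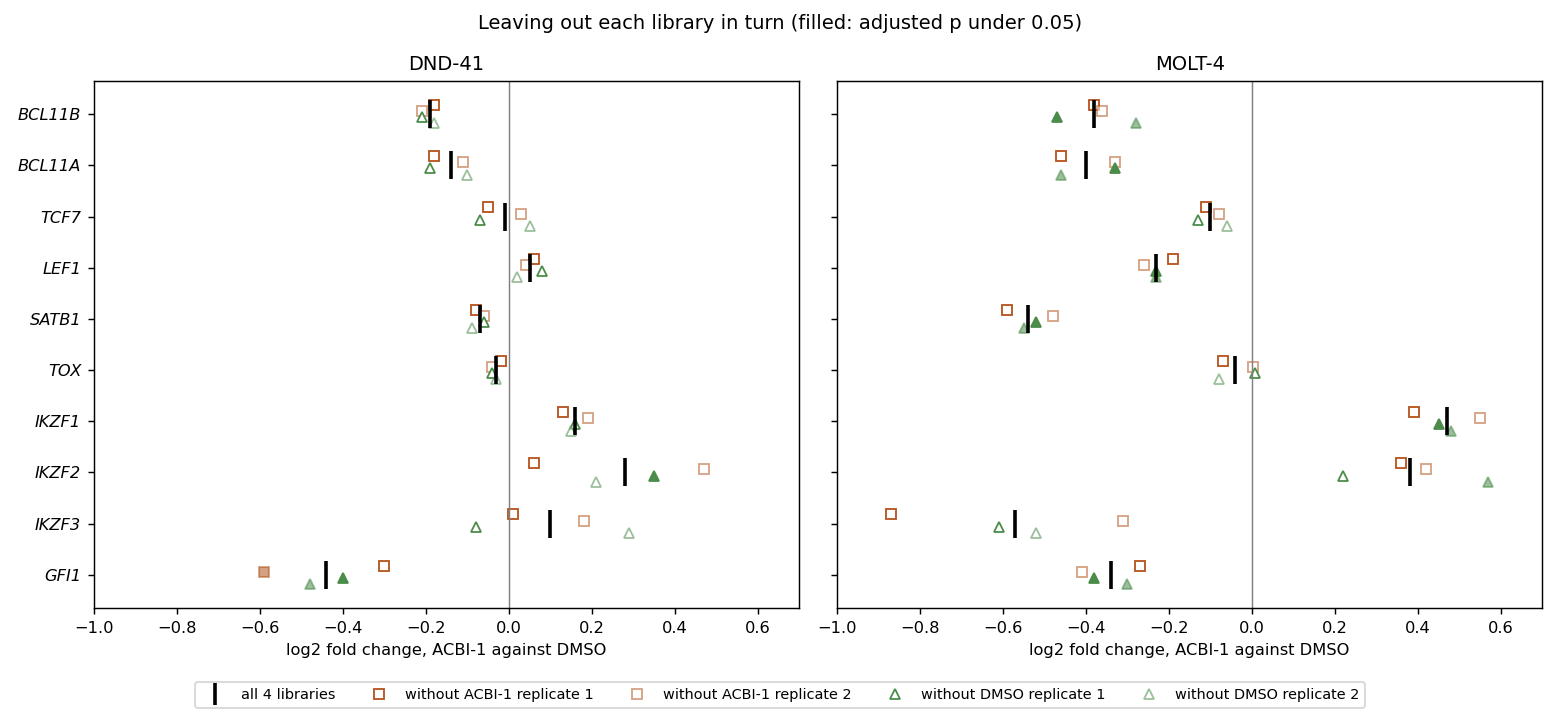
Log2 fold change of each regulator with all 4 libraries of a line (black bar) and with each library left out in turn; filled symbols mark an adjusted p under 0.05. In DND-41, IKZF2 ranges from 0.06 to 0.47 and GFI1 from -0.59 to -0.30, and in MOLT-4 every symbol without an ACBI-1 library is open.

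In the authors' deposited tables, MOLT-4 had the same 7 regulators called as found here, with 7 of 7 shared. In DND-41 their deposited table called GFI1 (-0.44 ± 0.11, adjusted p = 0.00387 from their DESeq2) and not IKZF2 (0.28 ± 0.22, adjusted p = 0.698).

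Of 9 paralogs outside the list 5 had enough counts to be tested in DND-41. With edgeR 0 were called there and 1 had an unadjusted p under 0.05, and DESeq2 called 0. In MOLT-4 7 were tested and 1 was called (14.3%, near the 10.8% of all genes). That gene was IKZF4, which encodes the Ikaros family protein Eos and fell from 17.1 and 19.1 to 13.9 and 14.4 CPM in MOLT-4 (-0.39 ± 0.10, edgeR adjusted p = 0.0149). DESeq2 did not call it (adjusted p = 0.191). In DND-41, where IKZF4 was higher (43.2 and 47.3 CPM with DMSO), it was at -0.18 ± 0.08. IKZF4 was thus lower in MOLT-4 than in DND-41 in DMSO (-1.27 ± 0.09), the reverse of IKZF3. TOX2, a relative of TOX, had 22.2 and 17.5 CPM in MOLT-4 DMSO and 0.451 and 0.647 CPM in DND-41 DMSO. TCF7L1 was low, with 6 and 7 counts in DND-41 DMSO and 19 and 17 in MOLT-4 DMSO. It was higher in MOLT-4 by 1.51 ± 0.47, which DESeq2 did not call (adjusted p = 0.0733), and TCF7L2 was lower, at -0.33 ± 0.08. TOX4 and IKZF5 were not called in any comparison. TOX3 had no count in any library, and GFI1B at most 0.0502 CPM.

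The cofactors of these regulators were counted next. Of 13 NuRD subunits, the partners of Ikaros proteins, 2 were called in DND-41 and 3 in MOLT-4, all lower. These are 15.4% and 23.1% of the subunits, against 6.05% and 6.94% of all genes called lower, and with so few genes a single call moves the share widely. CHD4, the NuRD ATPase, had 362 and 355 CPM with DMSO and 229.9 and 251 CPM with ACBI-1 in DND-41. In MOLT-4 it had 376 and 380 CPM against 259 and 237 CPM. These falls of 0.58 ± 0.07 and 0.63 ± 0.06 on the log2 scale had adjusted p-values of 2.34e-07 and 4.56e-08 in edgeR. GATAD2A, a NuRD scaffold protein, fell by 0.42 ± 0.07 and 0.43 ± 0.06, and its paralog GATAD2B fell in MOLT-4 (-0.25 ± 0.06), with a difference between lines of -0.0044 ± 0.10 that was not called. MBD2 was not called.

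Of 11 tested cofactors of TCF7 and LEF1 (12 listed), 1 rose and 3 fell in DND-41, and 3 fell in MOLT-4 (36.4% and 27.3% called, against 9.83% and 10.8% of all genes). TLE4, a Groucho-type corepressor, went from 41.9 and 38.7 to 24.4 and 32.0 CPM in DND-41 and from 80.7 and 80.2 to 52.1 and 56.3 CPM in MOLT-4. Its log2 changes were -0.52 ± 0.09 and -0.60 ± 0.07. BCL9L, a beta-catenin coactivator, fell in both lines (-0.57 ± 0.08 and -0.26 ± 0.08). TLE3 fell in MOLT-4 (-0.35 ± 0.06). In DND-41 BCL9 rose (0.29 ± 0.07) and CTBP2 fell (-0.24 ± 0.08). CTBP2 had only 29 to 62 counts per library in MOLT-4. For the difference between lines 0 of the 11 cofactors were called with edgeR. DESeq2 called 3 of them in DND-41 and 2 in MOLT-4. Beta-catenin itself, CTNNB1, was not called. Of 8 corepressors of the KDM1A, RCOR and SIN3 kind, 0 were called in either line with edgeR or DESeq2, and 1 in DND-41 and 0 in MOLT-4 had an unadjusted p under 0.05. Of 24 BAF and PBAF subunits, SMARCD3 fell (-0.71 ± 0.18) and ARID1A rose (0.24 ± 0.08) in DND-41, a share of 8.33% that is near the background, and 0 were called in MOLT-4 with edgeR or DESeq2, where 5 had an unadjusted p under 0.05.

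The last group asked whether other genes of T-cell identity moved beside the regulators. Of 25 further T-lineage transcription factors, 4 rose and 7 fell among 24 tested in DND-41, and 3 rose and 8 fell among 23 tested in MOLT-4. The shares called were 45.8% and 47.8%, against 9.83% and 10.8% of all genes, and DESeq2 called 7 and 8 of these factors. This list, like the others, was chosen with earlier results of these data known, so a share above the background may follow from the choice. The median log2 change of these factors was -0.05 in DND-41 and -0.22 in MOLT-4. HES1, a repressor induced by Notch, fell in both lines (-1.54 ± 0.09 and -1.73 ± 0.08), as did the ETS factor FLI1 (-0.59 ± 0.07 and -0.43 ± 0.07) and the zinc-finger gene ZBTB7A (-0.49 ± 0.07 and -0.52 ± 0.06). ETS1 rose in MOLT-4 (0.46 ± 0.06). ID3, an inhibitor of E proteins, rose in DND-41 (1.27 ± 0.08). NOTCH1, the receptor often activated by mutation in T-ALL, fell in MOLT-4 (-0.88 ± 0.06).

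Among 32 surface and signalling genes of thymocytes, 5 rose and 3 fell of 31 tested in DND-41, and 2 rose and 9 fell of 32 tested in MOLT-4. These were 25.8% and 34.4% of those tested, against 9.83% and 10.8% of all genes, and DESeq2 called 5 and 9. CD3G, a chain of the T-cell receptor complex, rose in both lines, from 296 and 272 to 398 and 366 CPM in DND-41 and from 165 and 145 to 204 and 210.1 CPM in MOLT-4 (0.42 ± 0.07 and 0.39 ± 0.07). RHOH, a haematopoietic GTPase, also rose in both (0.33 ± 0.07 and 0.28 ± 0.07), and the adaptor LCP2 fell in both (-0.33 ± 0.07 and -0.51 ± 0.07). In MOLT-4 CCR9, the thymic homing receptor, went from 92.8 and 96.04 to 50.6 and 54.2 CPM (-0.88 ± 0.07). CD5 (-0.54 ± 0.06) and LAT (-0.71 ± 0.09), which act in T-cell receptor signalling, fell there too, and CD28 rose in DND-41 (0.45 ± 0.10). For the difference between lines 0 of 32 thymocyte genes were called. In DND-41 CCR9, CD5 and LAT were low. CCR9 went there from 3.51 and 3.54 to 1.80 and 3.19 CPM, and CD5 from 1.35 and 2.19 to 1.15 and 1.35 CPM. LAT went from 4.36 and 4.18 to 3.05 and 3.09 CPM. CD28 was at -0.00071 ± 0.10 in MOLT-4. Of 17 progenitor and alternative-lineage genes, 6 were tested in DND-41, where EOMES and HHEX fell (-0.64 ± 0.15 and -0.96 ± 0.24). In MOLT-4 8 were tested, LMO2 and EOMES fell (-1.49 ± 0.22 and -0.53 ± 0.14) and ERG rose (0.22 ± 0.07, with 0.13 to 0.33 when a library was left out). TBX21, NFIL3 and IL2RB were not called. TBX21 was at 0.70 ± 0.27 and NFIL3 at -0.45 ± 0.19 in DND-41, and IL2RB at -0.83 ± 0.32 in MOLT-4. Of this list 5 of 6 tested genes in DND-41 and 4 of 8 in MOLT-4 had an unadjusted p under 0.05 with edgeR. The called genes of this list were 33.3% and 37.5% of those tested, against 9.83% and 10.8% of all genes. With DESeq2 the 2 calls of this list in DND-41 became 0 and the 3 in MOLT-4 became 1. Without either ACBI-1 library of MOLT-4, each list of cofactors and identity genes had 0 calls there with edgeR. Without ACBI-1 replicate 1 of DND-41 the NuRD, TCF cofactor, thymocyte, and progenitor and alternative-lineage lists had 0 calls, and the T-lineage factors 1. Leaving out each library in turn gave 1 to 7 calls of T-lineage factors and 0 to 3 of thymocyte genes in DND-41, and 0 to 10 and 0 to 12 in MOLT-4.

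**Figure D5:**
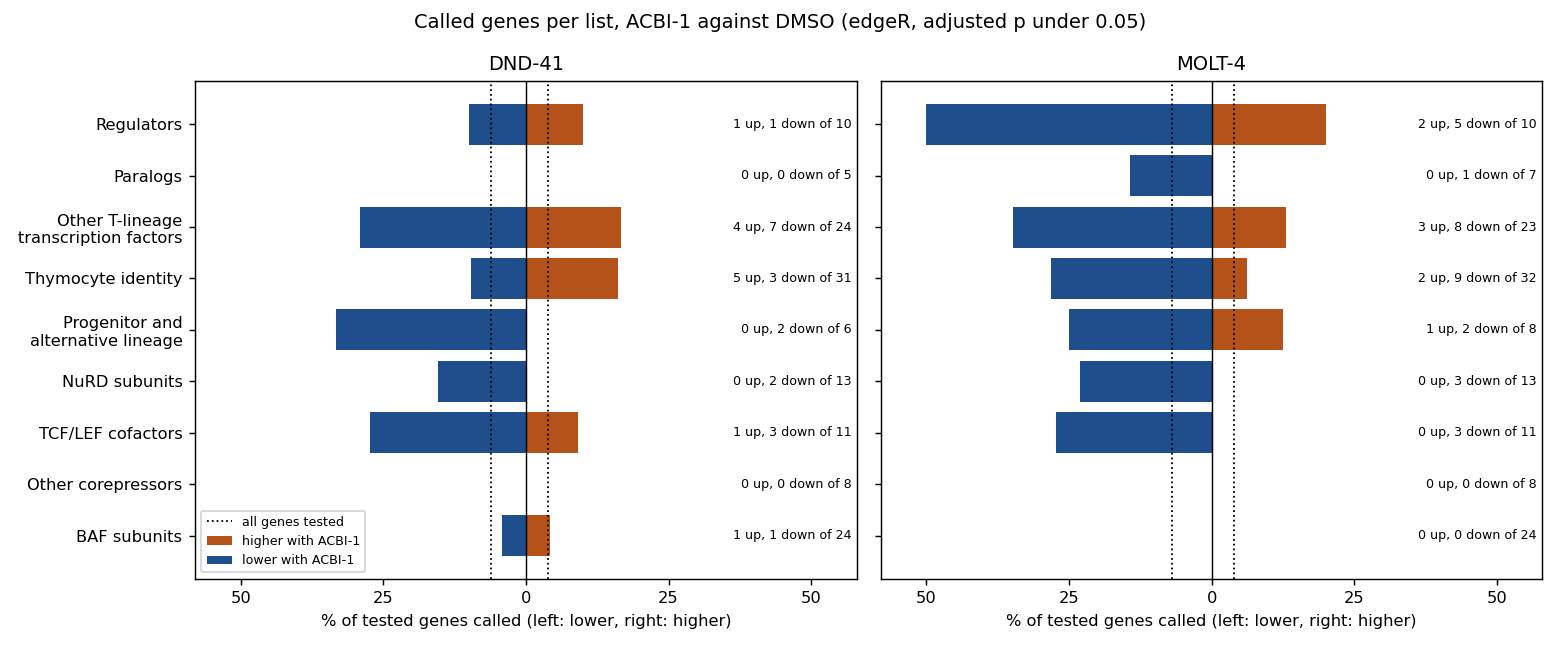
Share of tested genes called higher or lower (percent, adjusted p under 0.05) in each list and in all genes tested, for DND-41 and MOLT-4. In MOLT-4 70.0% of the regulators are called and 10.8% of all genes, and corepressors have 0 calls in both lines. The lists were chosen with earlier results of these data known.

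The genes whose pattern over the 4 group means lay nearest to each called regulator were found among 10254 genes of at least 5 CPM, by the Euclidean distance of centred log2 CPM (8 libraries). SATB1 had the most distant neighbours, KIF3B at 0.12 and KIAA1549 at 0.14. For BCL11B they were LINC01003 (0.075) and PLXNB1 (0.084), and for BCL11A WDFY1 (0.031) and C11orf96 (0.072). LEF1 had ST8SIA4 (0.040) and BRWD3 (0.053), and IKZF1 had RPP40 (0.071) and TTLL1 (0.074). IKZF2 lay nearest to ZNF599 (0.040) and WASH7P (0.057), and GFI1 to ZNF275 (0.050) and PLEC (0.060). WASH7P has near-identical copies, so its counts are uncertain.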

How the data were processed

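Libraries were strand-specific and paired-end, per the labels' protocols, and titles gave the line, treatment and replicate of each sample. Count columns carried codes, which were matched to the titles by their letters and digits. The letter after the replicate digit was read as A for ACBI-1 and D for DMSO. The authors deposited raw counts per gene for each line and their own comparison per line, with log2 fold changes, a test score, p-values and adjusted p-values, per the file headers. The submitters' processing notes name STAR 2.5.2a, featureCounts, DESeq2 1.12.4 and hg19. The annotation is not given in the sources used here, nor is the strand setting, so reads of overlapping or antisense genes could not be told apart. The sign of the deposited tables was read from their correlation with the changes computed from the counts, and was turned round for MOLT-4. The direction of the changes in MOLT-4 thus rests on the reading of the column codes.

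Each line was tested on its own 4 libraries by the quasi-likelihood F-test of edgeR 4.0.16 (R 4.3.3, limma 3.58.1) after TMM scaling and filterByExpr, and p-values were adjusted over all genes tested (Benjamini-Hochberg, 0.05). The comparison of lines and the interaction used all 8 libraries. "Adjusted p" means this test unless another tool is named. CPM divides by total counts, and ± is the SD over libraries for CPM or the SE for log2 changes. Scripts were tested on simulated data. At this depth 1 CPM is about 20 counts, and a count of 0 allows 3 counts, counting error only. Replicates differed beyond sampling noise in all 4 groups. An exact permutation test cannot reach 0.05 with 2 libraries on each side. Exon lengths and overlaps came from GENCODE 29, on another build than the counts.

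Alternatives were DESeq2 1.42.0, other scalings, filters and thresholds, the replicate block, a fit of all 8 libraries, subtraction of MOLT-4 reads and leaving out each library; a minimum of 20 summed counts was chosen after seeing the data. The regulators and the other lists were chosen with earlier results of these data known. From each other list up to 4 tested genes with the smallest p in each line are named, besides the regulators and their paralogs; some genes that this rule chose are not reported by name here.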

Additional observations from a re-analysis of the deposited data

Results flagged for a closer look

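The response to ACBI-1 differed between the lines by the interaction test (edgeR, all 8 libraries) for SATB1, NOTCH1 and ID3, which the report names, and for GATA3 and RORA. SATB1 fell more in MOLT-4 than in DND-41, by -0.44 ± 0.09 on the log2 scale (adjusted p = 0.0112). NOTCH1 fell in MOLT-4 and was at -0.0028 ± 0.09 in DND-41, a difference of -0.85 ± 0.11 (adjusted p = 4.86e-05). ID3 rose by 1.27 ± 0.08 in DND-41 and was at 0.21 ± 0.09 in MOLT-4, a difference of -1.04 ± 0.14 (adjusted p = 8.14e-05). For NOTCH1 the difference ranged from -0.97 to -0.71 and for ID3 from -1.32 to -0.85 when each library was left out in turn. GATA3 and RORA, both on the list of T-lineage factors, are named here after their values were seen. GATA3, a factor of early T-cell development, went from 250.3 and 247.8 to 195 and 170 CPM in MOLT-4 and from 217.5 and 204 to 198 and 210.5 CPM in DND-41, a difference of -0.40 ± 0.09 (edgeR, adjusted p = 0.0423). RORA, a nuclear receptor, rose in DND-41 (1.95 ± 0.57) and fell in MOLT-4 (-0.74 ± 0.21), a difference of -2.67 ± 0.59 (edgeR, adjusted p = 0.0233), on 3 and 4 counts with DMSO and 17 and 11 with ACBI-1 in DND-41. For each of these 2 genes the call was lost when any 1 of 6 of the 8 libraries was left out. DESeq2 did not call RORA, and GATA3 was not called with total counts as the scale or with the replicate block.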

How the results depend on the processing

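Over all genes, calls in DND-41 (1378) came to 763 at an adjusted p of 0.01, 612 with DESeq2, 2 with no filter on low counts and 2230 with the replicate block, and to 3 to 632 with a library left out. In MOLT-4 (1568) they came to 879, 689 and 39 under the first 3 of these, and to 0 to 1430 with a library left out. The difference between lines (100) came to 50 at 0.01, 13 with no filter and 49 to 138 with a library left out. Of the regulators, the 2 called in DND-41 became 1 at 0.01, with DESeq2, with all 8 libraries in one fit and with a minimum of 20 counts, 0 with no filter, 4 with the replicate block, which added BCL11B and IKZF1, and 0 to 2 with a library left out. The 7 in MOLT-4 became 0 with no filter and 0 to 7 with a library left out, and the 1 that differed between lines became 0 at 0.01 and with no filter, 2 with DESeq2 and 0 to 1 with a library left out. The cause of these shifts was not tested.

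The difference of replicate 1 from replicate 2 with ACBI-1 was correlated over genes with that difference with DMSO. This gave r = 0.198 in DND-41 (9968 genes) and 0.163 in MOLT-4 (10097 genes). Replicates paired in this way share a number, and the labels do not say whether they share a culture. In MOLT-4 the block added IKZF3. Signs that turned belonged to genes that were not called: TCF7 in DND-41 (0.00056 with total counts, 0.09 with MOLT-4 reads subtracted), TOX for the difference between lines (-0.0076 with DESeq2, -0.0069 with its size factors, -0.0086 with no filter), IKZF2 between untreated lines (-0.03 with total counts), and IKZF5 and TOX4 in MOLT-4 (0.02 and 0.0047 with total counts). Leaving out a library gave -0.02 to 0.27 for GFI1 for the difference between lines, -0.13 to 0.19 for IKZF2 between untreated lines, -0.07 to 0.35 for IKZF2 for the difference between lines, -0.08 to 0.29 for IKZF3 in DND-41, -0.05 to 0.04 for IKZF5 in MOLT-4, -0.07 to 0.05 for TCF7 in DND-41, -0.13 to 0.0015 for TCF7 for the difference between lines, -0.08 to 0.0064 for TOX in MOLT-4, -0.06 to 0.03 for TOX for the difference between lines and -0.01 to 0.05 for TOX4 in DND-41. Scaling moved the median of all genes by at most 0.05.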
